A study of Homo sapiens with 8 samples.

Results

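The metallothioneins and 2 genes that act around them in zinc homeostasis were examined in U-2OS Tet-ON, a human osteosarcoma cell line, with and without depletion of CGGBP1, the CGG triplet repeat binding protein. The list held 7 genes, the metallothioneins MT2A, MT1X, MT1E, MT1F and MT1G, the zinc-sensing transcription factor MTF1 and the zinc exporter SLC30A1. They were chosen from total and new RNA values of the same siControl and siCGGBP1 libraries that are described here, so their differences between the groups are given as a description, and no p-value is given for them. Of the 7 genes, 5 were analysed among 18388 genes in all, and MT1F and MT1G were not analysed here. All 5 passed the filter on low values (100 or more reads in 3 or more of the 6 compared libraries), as did 10138 genes in all.

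In SLAM-Seq, cells take up 4-thiouridine (4sU), which enters RNA made during the pulse and is read as T-to-C conversions after alkylation. The siControl group (n = 3) received 50 nM of a control siRNA for 72 h, and the siCGGBP1 group (n = 3) received 50 nM of siRNA against CGGBP1 for the same time. Both groups were then given 75 µM 4sU for 60 min. The titles of all 8 samples also name DMSO, which the groups thus share. Single siControl libraries with 0 and 200 µM 4sU are listed beside them and entered no fit between the groups.

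Metallothioneins are small, cysteine-rich proteins that bind zinc and copper and buffer free metal in the cytoplasm. When free zinc rises, MTF1 binds metal response elements in promoters and activates the metallothionein genes and SLC30A1, whose product carries zinc out across the plasma membrane. In this way storage, export and sensing of zinc form a feedback loop. Metallothionein genes also respond to glucocorticoids and oxidative stress.

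CGGBP1 RNA itself had a mean of 93.7 ± 15.1 CPM (read counts per 1000000 reads, normalised by TMM) in the siControl libraries and 20.2 ± 10.6 after CGGBP1 siRNA (SD, 3 libraries each), and it fell by 2.22 ± 0.39 (SE) on the log2 scale (edgeR's quasi-likelihood test, Benjamini-Hochberg adjusted p = 0.0138). The 6 compared libraries held 10127519 to 14221516 reads, the 0 µM library 19011714 and the 200 µM library 11341561. Among the 6 compared libraries, replicate 3 of both groups stood apart in the new-to-total RNA ratio. This ratio is the share of a gene's RNA made during the pulse, as estimated from conversions. It was 0 or missing for 57.4% and 59.8% of tested genes in replicate 3, against 22.5% to 31.9% in replicates 1 and 2. The 200 µM library resembled replicate 3, with 55.6%. Of the marker genes of osteosarcoma and mesenchymal cells, VIM (vimentin) lay between 1805 and 3301 CPM over the 8 libraries, whereas BGLAP (osteocalcin) stayed at or under 3.92. The collagen gene COL1A1 (log2 fold change 1.31 ± 0.18 (SE), adjusted p = 0.00353) and the matrix gene SPARC (1.27 ± 0.19 (SE), adjusted p = 0.00634) rose in siCGGBP1 by edgeR's quasi-likelihood test. Of 4 markers of other cell types, CDH1 and PECAM1 were at 0 in all 8 libraries and PTPRC was at most 0.703 CPM. The summed level of the 4 was 4.72 to 8.26 CPM in siControl and 7.65 to 13.3 in siCGGBP1. Nearly all of it was EPCAM, with 4.62, 5.09 and 8.26 CPM in siControl and 13.3, 6.94 and 13.2 in siCGGBP1. The part of these differences in the results was not tested.

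MT2A, MT1E and MT1X lie on the plus strand of chromosome 16, and 75613 bases separate the first base of MT2A from the last base of MT1X. In GRCh38, MT2A (ENSG00000125148) spans chr16:56608584-56609497, MT1E (ENSG00000169715) spans chr16:56625475-56627112 and MT1X (ENSG00000187193) spans chr16:56682470-56684196. MTF1 (ENSG00000188786) spans chr1:37809574-37859592 and SLC30A1 (ENSG00000170385) spans chr1:211571568-211579161, both on the minus strand. Promoter sequences from RefSeq (GRCh38.p14) were matched by symbol for 4 of the 7 genes, MT2A, MT1X, SLC30A1 and MTF1. They are shown because these are the stretches in which MTF1 sites of metallothionein genes are known to lie. Each is the 250 bases upstream of the gene's start, 5′ to 3′ on the gene's strand, with capitals marking matches to the core of the metal response element, TGCACNC or TGCGCNC, on either strand.
MT2A, chr16:56608334-56608583, plus strand: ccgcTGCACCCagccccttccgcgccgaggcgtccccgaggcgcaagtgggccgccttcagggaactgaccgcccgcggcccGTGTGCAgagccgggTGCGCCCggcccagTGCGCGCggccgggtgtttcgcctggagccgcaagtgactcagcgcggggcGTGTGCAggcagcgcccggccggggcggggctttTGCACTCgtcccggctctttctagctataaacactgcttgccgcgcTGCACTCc
MT1X, chr16:56682220-56682469, plus strand: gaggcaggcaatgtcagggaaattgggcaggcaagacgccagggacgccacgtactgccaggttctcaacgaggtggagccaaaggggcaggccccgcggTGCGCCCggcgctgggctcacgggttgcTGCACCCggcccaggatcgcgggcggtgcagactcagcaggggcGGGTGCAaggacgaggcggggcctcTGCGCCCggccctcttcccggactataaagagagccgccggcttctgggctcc
SLC30A1, chr1:211579162-211579411, minus strand: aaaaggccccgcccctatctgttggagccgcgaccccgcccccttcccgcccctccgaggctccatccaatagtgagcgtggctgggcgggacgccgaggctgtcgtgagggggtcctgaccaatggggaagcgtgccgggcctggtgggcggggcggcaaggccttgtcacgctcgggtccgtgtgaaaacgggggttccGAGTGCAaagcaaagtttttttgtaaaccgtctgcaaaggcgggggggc
MTF1, chr1:37859593-37859842, minus strand: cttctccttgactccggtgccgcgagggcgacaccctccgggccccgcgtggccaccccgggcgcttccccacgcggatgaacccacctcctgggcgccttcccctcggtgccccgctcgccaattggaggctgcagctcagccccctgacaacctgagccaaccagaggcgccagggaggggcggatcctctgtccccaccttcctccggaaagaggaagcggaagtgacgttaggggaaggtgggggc
With the first 50 bases of the gene added, the MT2A window held 8 matches, 7 of them upstream. As many matches were found in 0.0199% of 35116 promoter windows of this length. MT1X held 4 matches, all upstream (0.601% of windows had as many), and SLC30A1 held 2, of which 1 was upstream (8.60% of windows). MTF1 held none, and 29.6% of all windows held at least 1. The triplet pair CGGCGG, searched on both strands and counted as present where it occurred at least once, was found once each in the MT1X, SLC30A1 and MTF1 windows and not in that of MT2A, against 29.6% of all windows. These matches describe letters only, and binding of MTF1 or CGGBP1 was not measured here.

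MT2A, a metallothionein expressed in most human tissues, was far lower after CGGBP1 depletion. It had 4290, 5244 and 4833 CPM in siControl replicates 1, 2 and 3 and 1886, 2011 and 1375 in the siCGGBP1 replicates. The groups did not overlap, and the highest siCGGBP1 library stayed well under the lowest siControl library. The siControl mean was 4789 ± 478 and the siCGGBP1 mean 1758 ± 337 (SD, n = 3 each). The log2 fold change was -1.46 ± 0.16 (SE), a 2.75-fold lower level. By read count MT2A ranked 4 of the 10138 tested genes in siControl, so the difference rested on 42716 to 62834 reads per siControl library and 18673 to 22883 per siCGGBP1 library. The single libraries with 0 and 200 µM 4sU had 4003 and 4586 CPM, both above every siCGGBP1 library. In bulk RNA, a lower level in every cell and a smaller number of cells with a high level cannot be told apart.

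MT1E, another metallothionein of the same cluster, was lower as well, to a smaller degree. Its level was 1289, 1540 and 1682 CPM in siControl and 866, 903 and 962 in siCGGBP1. Again no siCGGBP1 library reached the lowest siControl library. The means were 1504 ± 199 and 910 ± 48.0 (SD, n = 3 each), with a log2 fold change of -0.73 ± 0.15 (SE). The 0 and 200 µM libraries had 1226 and 1323 CPM.

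MT1X, a further metallothionein of the cluster, was covered by far fewer reads, 213 to 562 in each of the 6 libraries. It had 56.4, 22.5 and 47.8 CPM in siControl and 25.3, 18.7 and 28.8 in siCGGBP1. Here the groups overlapped, since siControl replicate 2 lay below siCGGBP1 replicates 1 and 3, and 7 of the 9 pairs of a siCGGBP1 with a siControl library were lower in siCGGBP1. Between libraries of the same replicate number MT1X was lower in siCGGBP1 in all 3 pairs. The log2 fold change was -0.81 ± 0.41 (SE), or -0.73 with the replicate number as a block.

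**Figure D1:**
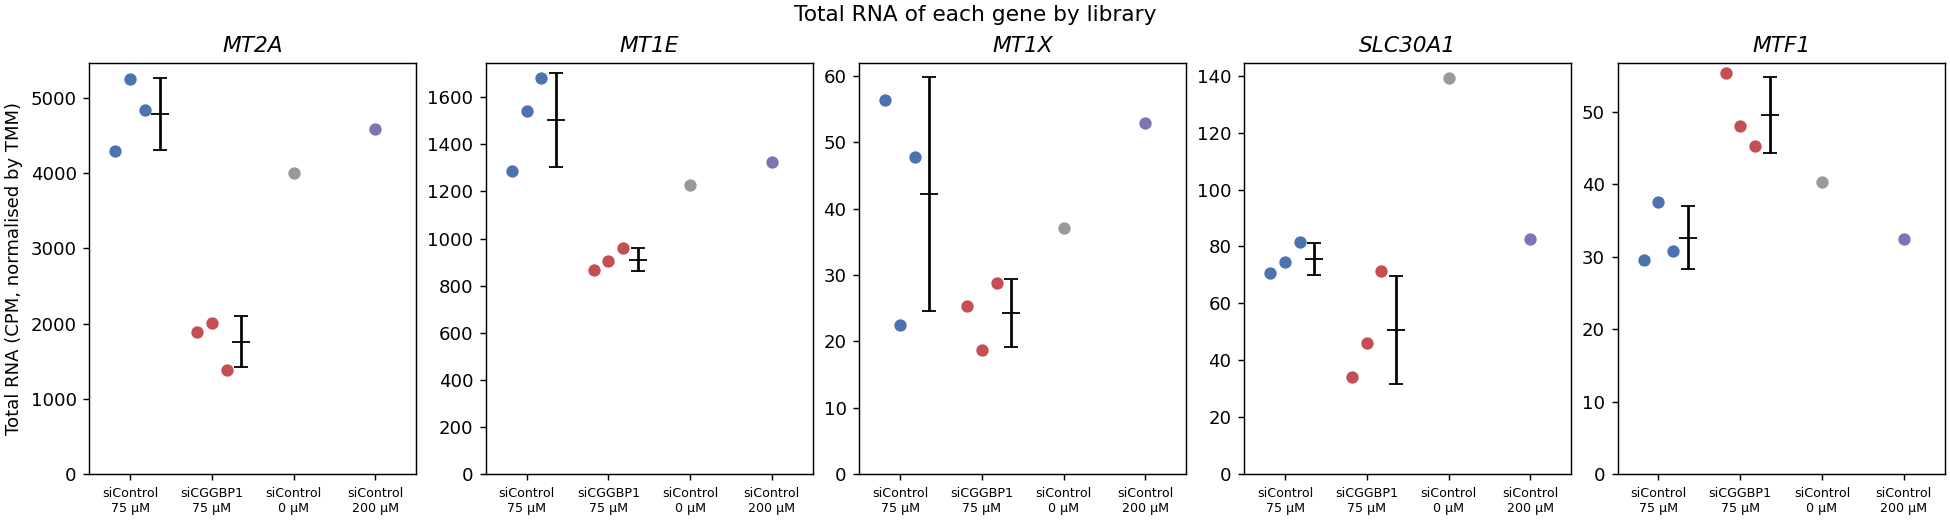
Total RNA of the 5 analysed genes in CPM (linear axis from 0, a scale of its own for each gene), with 1 point per library and, beside the groups of 3, the mean and SD. MT2A and MT1E were lower in each siCGGBP1 library than in each siControl library, MTF1 was higher, and MT1X and SLC30A1 overlapped.

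Because the metallothioneins are near-identical in part, reads of one can be assigned to another. Of the 50-base words in the last 300 bases of the canonical transcript (GENCODE 44), 15.5% in MT2A, 30.7% in MT1X and 1.99% in MT1E also occurred in another gene, against none in MTF1 or SLC30A1. The shared words of MT2A occurred in MT1X among others but not in MT1E, and those of MT1E occurred only in MT1JP. Inexact matches were not counted. The split of reads among the metallothioneins, above all for MT1X, is therefore uncertain, and their sum is given as well. The 3 metallothioneins together had 5635, 6807 and 6563 CPM in siControl and 2778, 2933 and 2366 in siCGGBP1. They made up 0.552% to 0.674% of all reads of a siControl library and 0.233% to 0.284% of a siCGGBP1 library. With the 3 genes summed to 1 before the fit, the log2 fold change was -1.25 ± 0.13 (SE), or 2.37-fold lower.

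The composition of the metallothionein reads also differed between the groups. MT2A had 3.33, 3.40 and 2.87 reads for each MT1E read in siControl and 2.18, 2.23 and 1.43 in siCGGBP1. Its share of the summed reads was 75.6 ± 1.8% in siControl libraries and 64.9 ± 5.8% after depletion (SD, n = 3 each), lower in all 9 pairs. The 0 and 200 µM siControl libraries, with 3.26 and 3.47 MT2A reads per MT1E read, lay with the other siControl libraries. Of the other 12 metallothionein genes listed, MT1M had 0 reads in all 8 libraries, which allows at most 3 reads in each (counting error only), and MT1HL1 had at most 0.5 reads. The remaining 10 were not analysed here.

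SLC30A1, the zinc exporter that MTF1 is known to activate, had 70.7, 74.7 and 81.6 CPM in siControl and 34.2, 46.2 and 71.5 in siCGGBP1. Its siCGGBP1 libraries were thus spread widely, and siCGGBP1 replicate 3 lay above siControl replicate 1, although SLC30A1 was lower in siCGGBP1 in all 3 pairs of the same replicate number. The means were 75.6 ± 5.5 and 50.7 ± 19.0 (SD, n = 3 each), and the log2 fold change was -0.58 ± 0.31 (SE). It was -0.65 with the replicate block, -0.92 without siCGGBP1 replicate 3 and -0.37 without siCGGBP1 replicate 1. Among the siControl cells at other 4sU doses, the 0 µM library had 139 CPM, the highest of all 8 libraries, and the 200 µM library had 82.8.

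MTF1, the zinc sensor, differed in the opposite direction. It had 29.5, 37.6 and 30.8 CPM in siControl and 55.4, 48.1 and 45.3 in siCGGBP1. Each siCGGBP1 library was above each siControl library, by a log2 fold change of 0.59 ± 0.30 (SE). The 0 and 200 µM siControl libraries had 40.3 and 32.4 CPM, below the siCGGBP1 libraries. Coverage was low, with 294 to 635 reads in each of the 6 libraries.

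Among the 5 genes, MT2A alone met the call rule in total RNA, which asks for both an adjusted p below 0.05 and a log2 fold change beyond 1 in size. Over all tested genes 0.957% were called lower (97 genes) and 0.454% higher (46 genes). MT2A and MT1E were lower without overlap of the groups, as were 11.9% of all tested genes, and MTF1 was higher without overlap, as were 12.6%. These statements only place the genes among all others. As they were chosen from this contrast, nothing is read from these counts. In new RNA, the read count multiplied by the new-to-total ratio, none of the 5 genes met the rule with edgeR or with DESeq2. Over all tested genes 0.0296% were called higher (3 genes) and 0.0197% lower (2 genes) in new RNA. With the replicate number as a block, 2 genes in all were called in new RNA in place of 5.

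New MT2A RNA was lower in siCGGBP1 by about as much as total MT2A RNA, while its new-to-total ratio overlapped between the groups. The ratio was 1.81%, 2.16% and 2.02% in siControl and 1.57%, 1.95% and 3.23% in siCGGBP1. Only siCGGBP1 replicate 3, a library with many ratios of 0 over all genes, lay outside the range of the others by more than its credible limits of 2.96% and 3.53%. New MT2A RNA came to 77.7, 113 and 97.6 CPM in siControl and 29.6, 39.2 and 44.4 in siCGGBP1, lower in all 9 pairs (log2 fold change -1.36 ± 0.43 (SE)). It was -1.50 without siCGGBP1 replicate 3 and -1.35 without siControl replicate 3. The share of all tested genes that were lower in all 9 pairs in new RNA is not given, so nothing is read from that separation. With 200 µM 4sU, in a single library that also had many ratios of 0 over all genes, the ratio was 7.56%.

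New MT1E RNA was 109, 153 and 239 CPM in siControl and 113, 105 and 106 in siCGGBP1, lower in 8 of 9 pairs, with a log2 fold change of -0.64 ± 0.27 (SE). Without siControl replicate 3 it was -0.29, and without siCGGBP1 replicate 3 it was -0.63. Its ratio was 8.48%, 9.93% and 14.2% in siControl and 13.0%, 11.6% and 11.0% in siCGGBP1, with overlapping groups. In the single 200 µM library, which had many ratios of 0 over all genes, it was 31.3%. For MT1X a ratio above 0 was given only in siControl replicate 1 (1.95%, from 20 conversions). It was 0 in the other 5 compared libraries and at 200 µM, where the upper credible limits ranged from 0.84% to 2.49%. Outside siControl replicate 1, the estimate of new MT1X RNA was thus 0, although siCGGBP1 replicate 2 held 6 conversions. The fitted fold change of new MT1X RNA is not given.

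SLC30A1 had a high ratio with wide scatter in siControl, 15.3%, 21.8% and 47.4%, against 24.9%, 26.4% and 27.1% in siCGGBP1. The siCGGBP1 values all lay within the siControl range. Its new RNA was 10.8, 16.3 and 38.7 CPM in siControl and 8.51, 12.2 and 19.4 in siCGGBP1 (log2 fold change -0.71 ± 0.94 (SE)), a difference smaller than its error, though lower in siCGGBP1 in all 3 pairs of the same number. Without siControl replicate 3 it was -0.02, and without siCGGBP1 replicate 3 it was -1.10.

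MTF1 had a lower new-to-total ratio in siCGGBP1, where its total RNA was higher. Its ratio was 37.1%, 42.2% and 35.7% in siControl and 21.1%, 17.1% and 2.80% in siCGGBP1, so that the groups did not overlap. The same held for 4.22% of all tested genes (missing ratios counted as 0). The means were 38.3 ± 3.4% and 13.7 ± 9.6% (SD, n = 3 each). New MTF1 RNA was 10.9, 15.8 and 11.0 CPM in siControl and 11.7, 8.22 and 1.27 in siCGGBP1, lower in 7 of 9 pairs. Its log2 fold change of -0.85 ± 1.34 (SE) rested largely on siCGGBP1 replicate 3, since it was -0.36 without that library. Without siControl replicate 3 it was -0.94. The RNA left after subtraction of new RNA was 18.6, 21.7 and 19.8 CPM in siControl and 43.7, 39.9 and 44.1 in siCGGBP1. By these ratios, the higher total of MTF1 was counted as RNA older than the pulse. The ratios are uncertain, because MTF1 had 0.396 conversions per 100 covered T without 4sU. In siCGGBP1 replicate 3 it had 0.120, below that background.

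**Figure D2:**
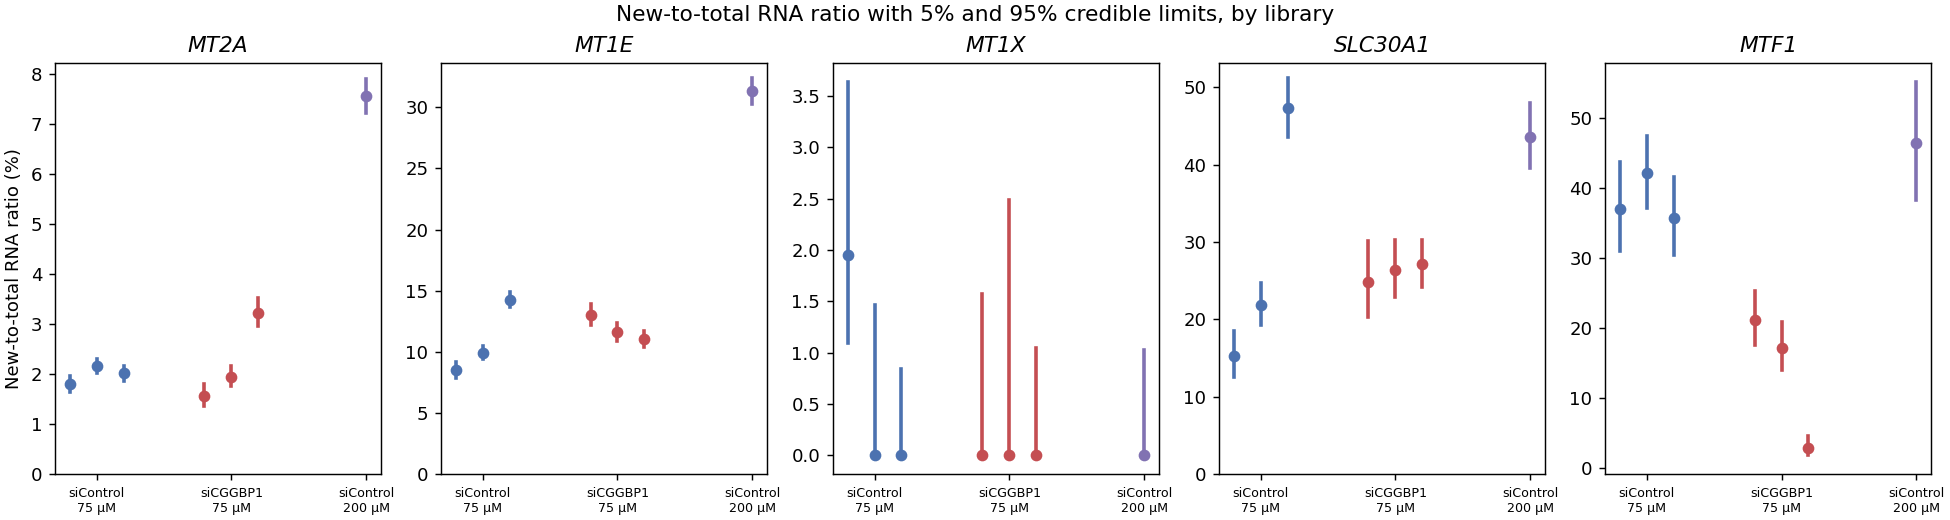
New-to-total RNA ratio in percent of the 5 analysed genes, with 1 point per library and bars from the 5% to the 95% credible limit given with the values (a scale of its own for each gene). The MTF1 ratio was 35.7% to 42.2% in siControl and 2.80% to 21.1% in siCGGBP1, whereas the groups of the other 4 genes overlapped.

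The conversions behind these ratios can be set against the library that received no 4sU. Over all genes this library had 0.0638 conversions per 100 covered T, and the 6 compared libraries had 0.183 to 0.263. SLC30A1 had a low background of 0.00525 conversions per 100 T at 0 µM, above 12.7% of the 7727 genes with at least 10000 covered T. The MT2A background of 0.0218 was below the rate over all genes but above 63.4% of those genes. MT2A had 0.114 to 0.137 in siControl and 0.127 to 0.170 in siCGGBP1, above its background in every library.

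MT1E and MTF1 had a high background of their own. Without 4sU MT1E had 0.228 conversions per 100 T, 3.57 times the rate over all genes and above 91.3% of the 7727 genes with at least 10000 covered T in that library. Its rate was 0.341, 0.344 and 0.401 in siControl and 0.475, 0.440 and 0.337 in siCGGBP1. MTF1 had 0.396 without 4sU, 6.21 times the rate over all genes and above 96.3% of those genes. In siCGGBP1 replicate 3 its rate was 0.120, below its own background.

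Reads with at least 2 conversions are rare without 4sU and gave a second view of the same libraries. Over all genes there were 18.3 to 19.4 such reads per 100 conversions in the 6 compared libraries and 1.48 in the 0 µM library. MT2A had 17.9, 21.7 and 20.1 per 100 conversions in siControl and 19.4, 23.8 and 27.9 in siCGGBP1. Except in siControl replicate 1, this was above the value over all genes in the same library. The gap was widest in siCGGBP1 replicate 3, where the value over all genes was 19.3. MT1E had fewer, 9.62, 4.78 and 11.1 in siControl and 9.28, 7.43 and 1.82 in siCGGBP1. MTF1 had 23.0, 26.7 and 45.9 per 100 conversions in siControl and 28.3, 24.8 and 40.7 in siCGGBP1, so the groups overlapped. As counts, MTF1 had 29, 75 and 72 such reads in siControl and 41, 34 and 11 in siCGGBP1, and 0 without 4sU. The MTF1 conversions at 0 µM (102 in all) were thus single in their reads. SLC30A1 had 0 such reads among 265 conversions in siCGGBP1 replicate 3, against 28 to 120 reads in the other 5 compared libraries. The effect of these backgrounds on the ratios was not tested beyond a subtraction of each gene's conversions at 0 µM. With it, the log2 fold change of new RNA was -1.29 for MT2A, -0.29 for MT1E, -0.80 for SLC30A1 and -2.05 for MTF1.

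**Figure D3:**
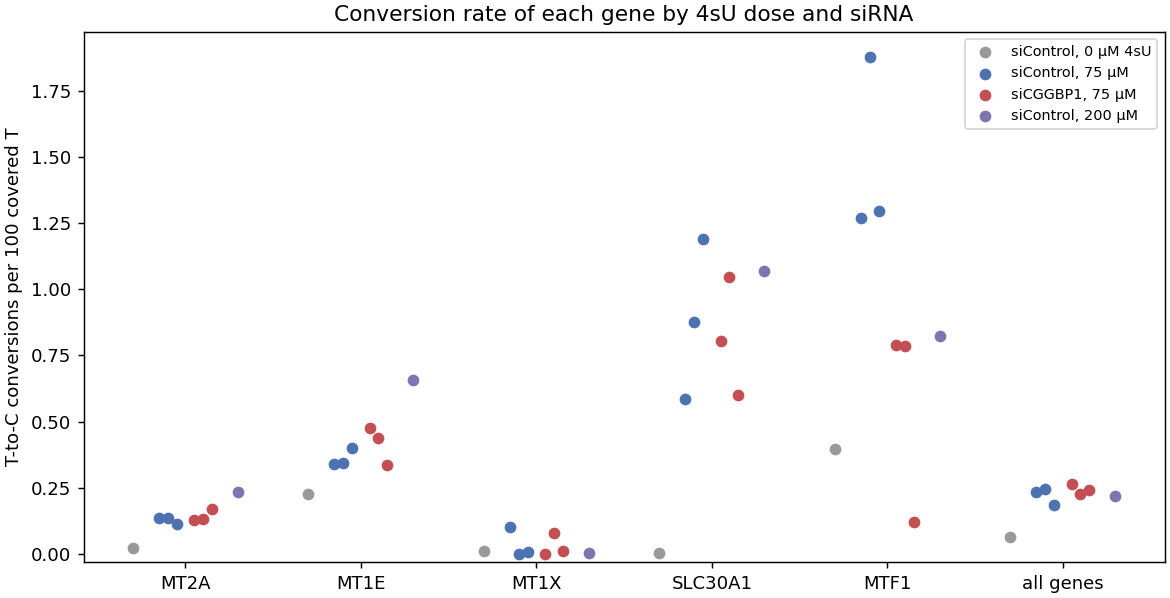
T-to-C conversions per 100 covered T (linear axis) for the 5 analysed genes and for all genes, with 1 point per library, coloured by siRNA and 4sU dose. Without 4sU, MT1E (0.228) and MTF1 (0.396) lay above the rate over all genes (0.0638), and MT2A and SLC30A1 lay below it.

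The wider zinc network was read from lists of transporters and of metal and stress response genes. Of 67 list genes tested, 2 were called, both lower in siCGGBP1 total RNA (2.99%, against 1.41% of all tested genes), and none was called in new RNA with edgeR or DESeq2 (2 had an unadjusted p under 0.05 with edgeR). Over all tested genes the median log2 fold change in total RNA was 0.00. DESeq2 called 371 of the 10138 tested genes in total RNA. The share of all tested genes with an unadjusted p under 0.05 is not given, so nothing is read from such counts.

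Zinc importers of the SLC39A family bring zinc into the cytoplasm. Of 11 tested, SLC39A14 (ZIP14), which carries zinc, iron and manganese across the plasma membrane, was called lower, and the median of the 11 was -0.16, with 7 below 0. SLC39A14 had 74.1, 72.5 and 108 CPM in siControl and 20.0, 24.4 and 31.3 in siCGGBP1. Its groups were far apart, with the highest siCGGBP1 library below the lowest siControl library. In total RNA it fell by 1.76 ± 0.31 (SE) on the log2 scale (edgeR's quasi-likelihood test, adjusted p = 0.0138). In new RNA its log2 fold change was 0.47, of the opposite sign, and it was not called. The total RNA call was lost without siCGGBP1 replicate 1 (adjusted p = 0.0851), siCGGBP1 replicate 2 (0.0588) or siControl replicate 3 (0.0640).

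The other 10 importers did not pass the test. SLC39A11 (27.4, 19.6 and 21.4 against 7.27, 10.6 and 7.49 CPM) had a log2 fold change of -1.44 ± 0.53 (SE) with an adjusted p of 0.191 by edgeR. SLC39A10, also a known MTF1 target gene that MTF1 represses, had -0.85 ± 0.46 (SE). SLC39A3 had -0.90, and SLC39A7, which releases zinc from the endoplasmic reticulum, had -0.70. SLC39A1, SLC39A4, SLC39A6, SLC39A8, SLC39A9 and SLC39A13 lay between -0.16 and 0.39.

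Zinc exporters of the SLC30A family move zinc out of the cytoplasm into vesicles or organelles. None of 5 tested was called with edgeR or DESeq2, 1 had an unadjusted p under 0.05, and their median log2 fold change was 0.33. SLC30A3, which loads zinc into vesicles, had 25.2, 36.4 and 31.7 CPM in siControl and 52.6, 51.9 and 85.3 in siCGGBP1, without overlap (log2 fold change 1.02 ± 0.32 (SE), adjusted p = 0.133 by edgeR). SLC30A5, SLC30A6, SLC30A7 and SLC30A9 had 0.56, 0.09, -0.27 and 0.33. The value of SLC30A5 rested on siCGGBP1 replicate 3 (95.4 CPM, against 23.9 to 38.1 in the other 5 compared libraries) and was -0.33 without it. SLC30A6 was -0.09 without siControl replicate 1. SLC30A7 was 0.27 when siControl replicate 3 was left out and 0.02 when siCGGBP1 replicate 1 was, so that only SLC30A3 and SLC30A9 kept their sign without each library in turn.

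Other known MTF1 target genes did not pass the test, with none of 3 called by edgeR or DESeq2 and none at an unadjusted p under 0.05. SELENOH, a selenoprotein of the nucleus, had a log2 fold change of -0.29 ± 0.19 (SE), and GCLC, the catalytic subunit of glutathione synthesis, had 0.56 ± 0.39 (SE). The GCLC value rested on siCGGBP1 replicate 3 (94.5 CPM, against 32.3 to 40.1 in the other 5 compared libraries) and was -0.07 without it. Copper handling genes were likewise not called (0 of 7, none at an unadjusted p under 0.05 and none with DESeq2). COX17, the copper chaperone of cytochrome c oxidase, had -0.69 ± 0.33 (SE), and CCS, the copper chaperone of superoxide dismutase, had 0.58 ± 0.56 (SE).

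NRF2 is a transcription factor of the oxidative stress response. Of 16 of its target genes tested, 1 was called with edgeR (SLC7A11, lower) and 2 with DESeq2 (GCLM added), and 7 had an unadjusted p under 0.05 with edgeR. In all, 7 were lower without overlap of the groups (11.9% of all tested genes were), and the median log2 fold change was -0.07. SLC7A11, the cystine importer that feeds glutathione synthesis, had 33.0, 51.4 and 22.7 CPM in siControl and 6.16, 5.36 and 5.53 in siCGGBP1, without overlap, and fell by 2.66 ± 0.49 (SE) on the log2 scale (edgeR adjusted p = 0.0184). The SLC7A11 call was lost without siCGGBP1 replicate 1 (adjusted p = 0.0815), siCGGBP1 replicate 2 (0.0666), siControl replicate 1 (0.0785) or siControl replicate 2 (0.160).

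Heat shock factor target genes encode chaperones, and 9 of 10 tested had a log2 fold change below 0, with a median of -0.49. None was called with edgeR, although 6 had an unadjusted p under 0.05 and 1, BAG3, was called with DESeq2. In all, 5 were lower without overlap of the groups (11.9% of all tested genes were). BAG3, a co-chaperone, had -1.15 ± 0.32 (SE, edgeR adjusted p = 0.0926). HSPE1, the mitochondrial co-chaperonin, had -0.95 ± 0.22 (SE) and an edgeR adjusted p of 0.0462, short of the fold required. Of 7 glucocorticoid-responsive genes none was called with edgeR or DESeq2, none had an unadjusted p under 0.05, and the median was -0.19. KLF9 and CEBPD, both transcription factors, had the largest differences of that list, -0.67 ± 0.39 and -0.64 ± 0.39 (SE).

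The genes on either side of the metallothionein cluster were measured in the same fit. Of 10 tested neighbours none was called with edgeR or DESeq2, none had an unadjusted p under 0.05, 5 lay below 0 and the median log2 fold change was 0.14. GNAO1, a G protein subunit gene, had 10.6 ± 7.1 CPM in siControl and 26.7 ± 7.5 after depletion (SD, n = 3; 1.32 ± 0.64 (SE), edgeR adjusted p = 0.326), and CPNE2 had 0.75 ± 0.40 (SE).

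**Figure D4:**
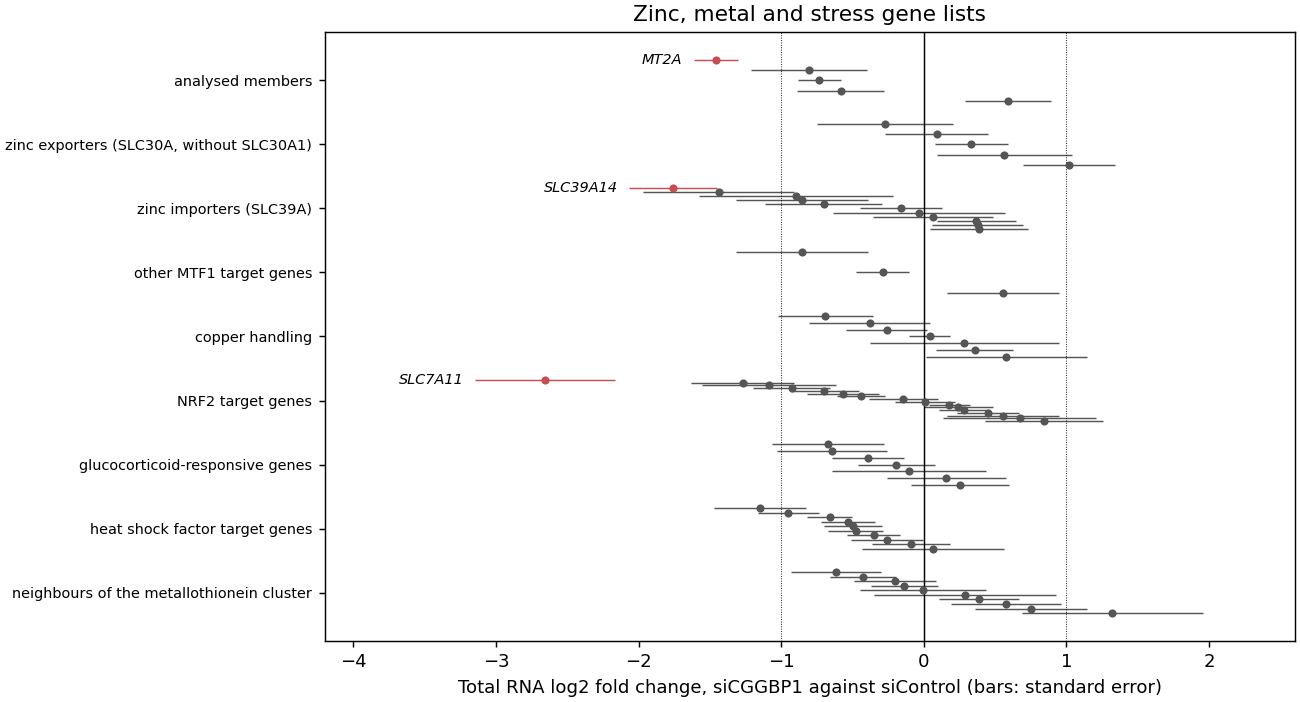
Log2 fold change of total RNA, siCGGBP1 against siControl, for the 5 analysed genes and each tested gene of 8 lists (1 point per gene, bars are standard errors, dotted lines mark 1 and -1). Called genes are red and named, and both called list genes (SLC39A14 and SLC7A11) lay below -1.

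Over the 8 libraries, the genes whose level followed the summed metallothioneins most closely were named by Pearson's r on log2(CPM + 1), a description that the difference between the groups dominates and that MT2A, as most of the sum, largely sets. They were ICK, a protein kinase gene (r = 0.991), CD180, a receptor gene (0.972), CALU, a calcium-binding protein of the secretory pathway (0.971), CCDC3 (0.968) and AC006213.2 (0.968). CALU, for example, had 228, 202 and 214 CPM in siControl and 76.5, 71.3 and 41.4 in siCGGBP1. SLC30A1 followed the sum loosely (r = 0.60, position 1387 of 10135 genes), and MTF1 ran against it (r = -0.83, position 9929).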

How the data were processed

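GRAND-SLAM gave the expected counts deposited by the authors (reads, conversions from T to C, T positions covered, and reads that hold 2 or more conversions), after Bowtie2 2.3.0 removed ribosomal reads and STAR 2.5.3a mapped the rest to GRCh38 (versions from the submitters' processing notes). They were not normalized. The new-to-total ratio, deposited by the authors as a fraction with its credible limits, is printed as a percent. Molecular identifiers were not among the values, so limits from counts cover counting error only.

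Read counts were rounded, and genes that reached 100 reads in 3 or more of 6 libraries were fitted with edgeR 4.0.16 in R 4.3.3 (TMM, quasi-likelihood test, Benjamini-Hochberg adjustment over 10138 genes). New reads were the read count times the ratio, with scaling from total reads. A missing ratio (184 values) gave 0 new reads. The SE of a log2 fold change is its size over the square root of F. DESeq2 1.42.0 (Wald test), size factors, no filter, a replicate block, other estimates of new RNA and leaving out each library were alternatives, and subtracting a gene's conversion rate at 0 µM was added after the data were seen. The edgeR and DESeq2 fits of total reads without a block were tested on simulated counts, and the other fits were not. Samples are labelled as separate replicates with no source named, so p-values measure the spread between these samples.

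Same-numbered siControl and siCGGBP1 libraries deviated together over genes (r = 0.122, 0.215 and 0.105), but what a number shares is not stated. The main fits did not pair the libraries, and the SE, adjusted p and calls come from them unless a block is named. The fit with the replicate number as a block pairs the libraries and is given as an alternative.

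Named genes were the listed genes, CGGBP1, all tested zinc transporters and other MTF1 targets, from each other list the called genes or else the 2 with the largest log2 fold change, and the 5 most like the summed metallothioneins. The genes and lists were chosen with earlier results of these data known. The planned sum of 5 metallothioneins became a sum of the 3 analysed. One gene among those listed is not reported here.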

Additional observations from a re-analysis of the deposited data

Results flagged for a closer look

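The library with 200 µM 4sU is a single siControl library that entered no fit between the groups, and the values below come from it alone with no test. Its conversions were above the library without 4sU in 4 of the 5 genes. MT2A had 0.233 conversions per 100 covered T there, against 0.0218 without 4sU. MT1E had 0.656 against 0.228. MTF1 had 0.822 against 0.396, and none of its reads there held 2 or more conversions. SLC30A1 had 1.07 against 0.00525. Over all genes the 200 µM library had 0.218 conversions per 100 covered T, within the range of the 75 µM libraries.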

How the results depend on the processing

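Total RNA calls numbered 143, and 371 with DESeq2, 327 with no filter on low counts and 48 to 148 without 1 library (48 without siCGGBP1 replicate 1, 61 without siCGGBP1 replicate 2, and 62, 70 and 67 without siControl replicates 1, 2 and 3). With the replicate block there were 161, of which 123 were among the 143. New RNA calls numbered 5, and 27 with DESeq2, 18 from conversion counts, 3 with TMM on new reads, 2 with the replicate block and 3 to 6 without 1 library (3 without siCGGBP1 replicate 3, siControl replicate 1 or siControl replicate 2). List calls numbered 2 (SLC39A14 and SLC7A11), and 4 with DESeq2 (BAG3 and GCLM added) and 0 to 4 without 1 library (0 without siCGGBP1 replicate 1 or 2, 4 without siCGGBP1 replicate 3, and 1 without each siControl replicate in turn). The replicate block changed neither of the list calls. Of 117 alternative values of the 5 genes' log2 fold changes, 110 were within 1 SD of replicates and none took the opposite sign. Of the 7 that moved further, 5 were of new MT1X RNA, whose value was 0 without siControl replicate 1. The genes were chosen from this contrast, so nothing is read from these counts. The SD was wide in new RNA, at 1.46 for MT1X, 1.20 for MTF1 and 0.78 for SLC30A1. New SLC30A1 RNA thus counted as within it at -0.02 against -0.71. The fit of the summed metallothioneins was counted for each of MT2A, MT1X and MT1E. The total RNA range was -1.57 to -1.31 for MT2A taken alone, 0.51 to 0.70 for MTF1 and -0.92 to -0.37 for SLC30A1. The summed metallothioneins had -1.25. After subtraction of conversions at 0 µM, new MTF1 RNA had -2.05 and new MT1E RNA -0.29, against -0.85 and -0.64. The cause of these shifts was not tested. Low read counts limit the precision for MT1X, MTF1 and SLC30A1.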
